A study of Mus musculus with 39 samples.

Results

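Macrophages from old mice given ISRIB after bleomycin were compared with macrophages from young mice given saline, so that age and drug are both part of the difference. All 12171 genes that passed a filter on low counts were tested. The comparison used 10 of the 39 libraries of the series, 5 in each group. Old saline (5 libraries) and young ISRIB macrophages (4 libraries) supplied the steps in between. The cells were sorted by flow cytometry from lungs of C57BL/6J mice as Siglec F-low monocyte-derived alveolar macrophages. Bleomycin, which damages lung epithelium and provokes scarring, was given to every macrophage group, and cells were collected on day 21. ISRIB or its vehicle was injected daily from day 7. Ages are 8 to 12 weeks for young and over 18 months for old mice in the labels, and 3 to 5 and 18 to 24 months in the text of the series. No label says whether the libraries of a group came from separate mice, so p-values measure the spread between these libraries, which may be technical.

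ISRIB is a small molecule that binds eIF2B, the exchange factor that recharges eIF2 for each round of translation initiation, and keeps it active when eIF2 is phosphorylated. It thereby blunts the integrated stress response, in which several kinases phosphorylate eIF2, general translation drops and the transcription factor ATF4 is made. After lung injury, monocytes enter the airspace and become alveolar macrophages, first with low and later with higher Siglec F. Such recruited cells are known to make growth factors and matrix proteins that act on fibroblasts. With time they take on genes of resident alveolar macrophages, which clear surfactant lipid.

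Library totals were 6069978 to 16056708 counts in young saline and 7738711 to 9662591 in old ISRIB macrophages, and mitochondrial genes took 1.504 to 1.82% and 1.67 to 1.92% of them. The sorting markers matched the macrophage label: Adgre1, which encodes F4/80, lay at 422 to 484 CPM (counts scaled by the library total) in young saline and 416 to 503 CPM in old ISRIB libraries. Ly6c2, a marker of classical monocytes, was at most 2.20 and 2.78 CPM. The list of 10 markers of sorted macrophages summed to 8295 to 8640.1 (median 8488) CPM in young saline and 9544 to 10105 (median 9751) CPM in old ISRIB libraries, with no overlap. Of the 10, 5 were called higher and 0 lower, against 5.00% and 3.58% of all genes tested. Markers of other cell types differed between the groups as well. The summed level of 12 B cell markers was 2.47 to 10.5 (median 6.17) CPM in young saline and 33 to 68 (median 54.4) CPM in old ISRIB libraries, and that of 18 T and NK cell markers was 98.3 to 134 (median 121) and 214 to 334 (median 275) CPM. Endothelial markers summed to 148 to 229.7 (median 190.0) and 247 to 293 (median 260.2) CPM without overlap. Of 6 endothelial markers tested, 1 was called higher (Calcrl), against 5.00% of all genes. Calcrl lost its call without young saline replicate 1, 4 or 5 or old ISRIB replicate 4, and over all 39 libraries (adjusted p = 0.149). Cdh5 and Pecam1 had medians of 0.581 and 1.18 CPM in young saline and 0.646 and 2.91 CPM in old ISRIB. The T and NK markers Cd3e, Cd8a and Nkg7 had medians of 0.358, 0 and 0.597 CPM in young saline. In old ISRIB these were 2.40, 2.02 and 1.35 CPM. Other list members thus made up most of both sums. Neutrophil markers were at 84.9 to 125 (median 98) and 120.3 to 191 (median 141) CPM, and those of dendritic cells at 17.1 to 33.7 (median 23.1) and 31.8 to 48.1 (median 34.4) CPM, both with overlap. These values move with the comparison, and their part in the other results was not tested. Levels of single genes below are CPM of TMM-normalised library sizes. In RNA from sorted cells, fewer cells of a type and less RNA per cell cannot be told apart.

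At an adjusted p under 0.05 (edgeR quasi-likelihood test), 1045 genes were called, which is 8.59% of the 12171 tested. Of them 609 were higher in old ISRIB macrophages (5.00% of the genes tested) and 436 lower (3.58%). The 5 libraries of one group did not overlap with the 5 of the other in 783 of the called genes, and in 1202 of all genes tested (9.88%). A log2 difference over 1 in either direction was reached by 301 called genes, 207 higher and 94 lower. Called genes rested on individual libraries in part: 529 of the 1045 kept their call whichever of the 10 libraries was left out. The age step, old saline against young saline, called 141 genes (1.16%; 47 to 287 on leaving out 1 library, 294 with DESeq2, 468 without a filter on low counts and 60 over all 39 libraries), and the ISRIB step, old ISRIB against old saline, called 0. In that last step the unadjusted edgeR p was under 0.05 for 1111 genes, while DESeq2 called 43 and limma voom 0. Without old saline replicate 3, replicate 5 or old ISRIB replicate 1, edgeR called 30, 16 and 1 genes in it. For every gene the log2 difference between old ISRIB and young saline is the sum of both steps, and all of these comparisons share libraries, so their values are set side by side below.

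Whether old ISRIB macrophages lay nearer to young untreated ones than old saline macrophages did was measured for each library. The distance is the root mean square log2 CPM difference over all genes tested, averaged over the young saline libraries. Old ISRIB libraries lay at 0.784, 0.833, 0.839, 0.782 and 0.819, a mean of 0.811 ± 0.0271 (SD, n = 5). Old saline libraries lay at 0.707, 0.670, 0.770, 0.747 and 0.803, a mean of 0.739 ± 0.0520 (SD, n = 5). Hence 3 old ISRIB libraries were further away than every old saline library, and the other 2 were further than all but 1. Young saline libraries were 0.687 ± 0.0569 (SD, n = 5) from one another, and young ISRIB libraries 0.760 ± 0.0259 (SD, n = 4) from them. The difference between old ISRIB and old saline was 0.0719 (two-sided exact permutation test, p = 0.0317, 0.00794 being the smallest p that the design can give). The direction was kept in all 21 alternatives run, but p was above 0.05 with genes of at least 10 CPM (p = 0.0794), with rank distances (p = 0.0635), and on leaving out old saline replicate 2 (p = 0.0556) or old ISRIB replicate 2, 3 or 5 (exact p = 0.0714, 0.0714 and 0.0635).

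**Figure D1:**
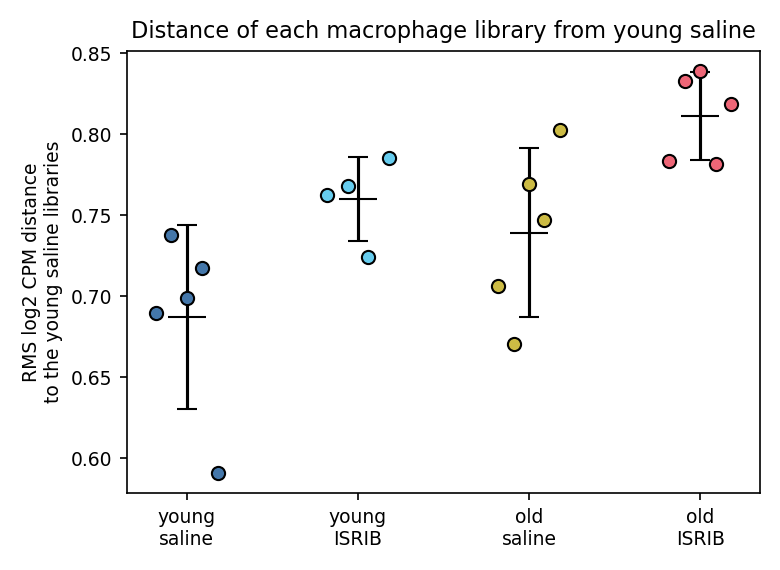
Root mean square log2 CPM distance (vertical axis) of each of the 19 macrophage libraries from the young saline libraries, by group; points are libraries, horizontal marks the mean and bars 1 SD. Old ISRIB libraries lie between 0.782 and 0.839, and old saline libraries between 0.670 and 0.803.

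Distances between group means were then computed so that the spread within groups cancels, as a mean over genes of squared log2 differences with the noise removed. On this scale young saline and old ISRIB macrophages were 0.212 apart (root 0.461), young saline and old saline 0.0780 (root 0.279), and old saline and old ISRIB 0.0409 (root 0.202). Old ISRIB was thus the most distant group from young saline, at 2.72 times the squared distance of old saline. Of these, the distance from old saline to old ISRIB was the least certain, with 0.0199 to 0.0747 when 1 of its libraries was left out. Its jackknife standard error of 0.0507 was larger than the value. The whole distance ranged from 0.194 to 0.231 when 1 of its libraries was left out, and the distance from young saline to old saline from 0.0563 to 0.0972. Some of the 37 lymphocyte and immunoglobulin genes tested passed the filter through the old libraries in which they were high. Together the 37 carried 12.4% of the squared distance from young saline to old ISRIB. Without them it was 0.187, against 0.0666 for old saline. Gene by gene, the estimated difference from young saline was larger in old ISRIB than in old saline macrophages for 7634 of 12171 genes (62.7%). Thus old ISRIB macrophages were estimated further away, on average and for most genes, but gene groups differed. The ISRIB step called 0 genes, so the count of genes rests on estimates alone. Old saline libraries were split on the first principal component, the axis of largest spread. Replicates 3 and 5 lay at 31.18 and 27.97, within the old ISRIB range of 20.08 to 37.47. Old saline replicates 1, 2 and 4 lay at -8.016, -15.39 and -10.1. The old saline mean and the ISRIB step thus average over unlike libraries.

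**Figure D2:**
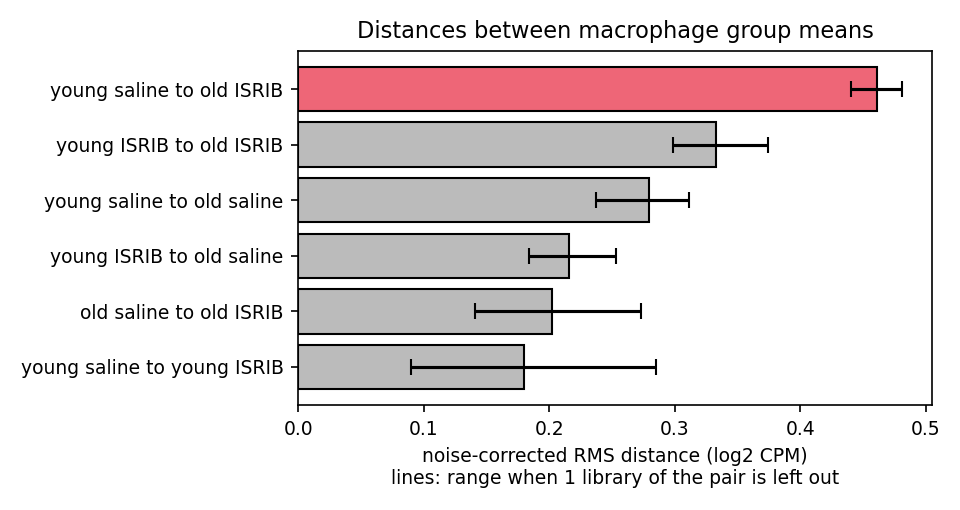
Noise-corrected root mean square distance in log2 CPM (horizontal axis) for each of the 6 pairs of macrophage groups; lines give the range when 1 library of the pair is left out. The pair of young saline and old ISRIB, at 0.461, is the widest apart.

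Genes that macrophages use to shape matrix were among the largest falls. Arg1 encodes arginase, which turns arginine into ornithine and marks alternatively activated macrophages (chr10:24915221-24927484, GRCm38). Its level was 128, 167, 65.9, 646 and 75.3 CPM in the young saline libraries and 35.6, 4.69, 30.2, 17.5 and 15.1 CPM in the old ISRIB libraries. Young saline replicate 4 stood far above the others, yet all 5 old ISRIB libraries lay below all 5 young saline ones. The log2 difference was -3.37 ± 0.73 (SE), adjusted p = 0.00423, of which -1.28 was the age step and -2.09 the ISRIB step, neither called alone. Without young saline replicate 4 the difference was -2.38 (adjusted p = 0.0266). Thbs1 encodes thrombospondin, a matricellular protein that activates latent TGF-beta. It measured 49.8, 74.2, 61.7, 196 and 65.5 CPM in young saline and 31.2, 17.3, 12.2, 21.4 and 31.7 CPM in old ISRIB libraries, with no overlap. Here old saline macrophages stood at 126, 159.9, 28.9, 89.4 and 77.6 CPM, a range that reached from below the young values to within them. The difference from young saline was -1.97 ± 0.41 (SE), adjusted p = 0.00347 in old ISRIB and 0.11 ± 0.38 (SE), adjusted p = 0.953 in old saline macrophages, so on the estimates it lay in the ISRIB step (-2.08 ± 0.41 (SE), adjusted p = 0.138). Versican (Vcan), a large matrix proteoglycan, fell by 2.64 on the log2 scale, and Sparc, a collagen-binding protein, by 2.04 (adjusted p = 0.011 and 0.00787). For Sparc the limma voom test missed the threshold (adjusted p = 0.0523).

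Gene lists and their members, here and below, were chosen with earlier results of these data known. Their shares of calls are therefore descriptions and no separate support. The list of fibrosis ligands and matricellular proteins held 25 tested genes. Of these 1 was called higher and 8 lower, against 5.00% and 3.58% of all genes. The list's median log2 difference was -0.24 in old ISRIB and -0.16 in old saline macrophages, against 0.01 and 0.00 for all genes tested. Fibronectin (Fn1), one of the most abundant transcripts of these cells, went from 13989.8 ± 2509 CPM to 7101 ± 1370.3 CPM (SD, n = 5), with 8751 ± 1705 CPM in old saline. Young saline libraries ranged over 11742 to 18308 CPM and old ISRIB libraries over 5383 to 8611 CPM, with no overlap. The fall of 0.98 (adjusted p = 6.54e-05) was mostly reached in old saline macrophages (-0.68, adjusted p = 0.0103). Emilin2 and Tgfbi, both secreted matrix proteins, fell by 0.90 and 0.55 (adjusted p = 7.52e-05 and 0.00253). Spp1, which encodes osteopontin and marks profibrotic macrophages, was 12494, 11541, 11574, 12997 and 11743 CPM in young saline and 8447, 3960.1, 4882, 11743 and 5921 CPM in old ISRIB libraries. The young libraries were tightly grouped, while old ISRIB spanned a wide range whose top, replicate 4, reached into the young range. Its fall of 0.79 (adjusted p = 0.024) lost its call without young saline replicate 1 or 4 or old ISRIB replicate 2, 3 or 5 (adjusted p up to 0.0682) and in the fit of all 39 libraries (0.0913). Pdgfa, a fibroblast mitogen, was 31.9 ± 6.82 CPM and 27.2 ± 8.06 CPM (SD, n = 5; log2 difference -0.23 ± 0.20 (SE), adjusted p = 0.548). Galectin-3 (Lgals3) was the member that rose, by 0.41 (adjusted p = 0.00963).

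Of 21 matrix proteases and inhibitors, 5 were called higher and 3 lower, against 5.00% and 3.58% of all genes. Adam19, a membrane sheddase, rose from 9.5, 13.6, 9.53, 13.4 and 10.6 CPM in young saline to 43.3, 35.3, 42, 46.1 and 35.5 CPM in old ISRIB libraries. Its groups were fully separate, and the log2 difference of 1.84 ± 0.25 (SE), adjusted p = 6.74e-05 stood beside 1.38 in old saline (adjusted p = 0.00824). Cathepsin K (Ctsk), which cleaves collagen, rose by 0.75 (adjusted p = 0.00119). Adam15 and Adam9 fell by 0.65 and 0.34 (adjusted p = 6.54e-05 and 0.00949, the latter 0.452 over all 39 libraries). Mmp9, which is also in the neutrophil marker list, was called higher but missed the threshold by limma voom (adjusted p = 0.0546). Mmp19 was called higher but lost its call with DESeq2 (adjusted p = 0.0607) and over all 39 libraries (0.481). Timp1 was called lower, but not over all 39 libraries (0.148). The elastase Mmp12, a known product of lung macrophages, ranged over 834 to 1225 CPM in young saline and 682 to 1550.4 CPM in old ISRIB libraries and was not called (0.22 ± 0.23 (SE), adjusted p = 0.631).

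For Plxdc2, a membrane protein of the plexin domain family (chr2:16356304-16755839), most of a large fall lay in the age step. Young saline libraries had 132, 116, 114, 147 and 112 CPM, old saline 28.2, 42.6, 18.9, 49.4 and 13.5 CPM and old ISRIB 30.6, 19.1, 18, 26 and 19.7 CPM. Both old groups lay below every young library, and overlapped with each other. The log2 difference was -2.45 ± 0.23 (SE), adjusted p = 1.35e-06 in old ISRIB and -2.03 ± 0.23 (SE), adjusted p = 3.25e-05 in old saline macrophages. The estimate for old ISRIB was thus not nearer to young saline than that for old saline (ISRIB step -0.41 ± 0.23 (SE), adjusted p = 0.62).

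Several genes of recently recruited monocytes and of interstitial-type macrophages were lower, while the monocyte list as a whole was not. Ccr2, the receptor that brings monocytes out of the marrow, was 304, 331, 279, 445 and 239 CPM in young saline, 157, 196, 71.7, 98 and 63 CPM in old saline and 143, 101, 93, 70.9 and 55.3 CPM in old ISRIB libraries. No old library reached the lowest young saline value. The differences from young saline were -1.78 ± 0.27 (SE), adjusted p = 1.87e-04 for old ISRIB and -1.45 ± 0.27 (SE), adjusted p = 0.0084 for old saline. S100a4 and Ace, which monocytes also express, fell by 1.59 and 1.52 (adjusted p = 1.91e-04 and 2.72e-04), about evenly over both steps (age -0.74 and -0.75). Cx3cr1, the fractalkine receptor, fell by 1.20 (adjusted p = 3.05e-04). In the monocyte list of 23 genes, 3 were called higher and 5 lower, against 5.00% and 3.58% of all genes. The list median was 0.07. Among its members that rose were Plac8 (3.89), which lymphocytes also express, and Treml4 (0.99). Plac8 was not called by limma voom (adjusted p = 0.0924) and stood at 5.199 without young saline replicate 1, and Treml4 lost its call on leaving out any of 4 libraries and in the fit of all 39. For these genes the lymphocyte markers above moved the same way, and their part was not tested.

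The 3 chains of complement C1q, secreted by tissue macrophages, fell together. C1qa was 1006, 1180.3, 859, 1206 and 825 CPM in young saline and 661, 464, 355, 621 and 499.8 CPM in old ISRIB libraries, with no overlap. Its difference was -0.96 ± 0.17 (SE), adjusted p = 9.95e-04, and those of C1qb and C1qc were -0.85 and -0.74 (adjusted p = 0.0048 and 0.00481). In old saline they were -0.42, -0.31 and -0.34, none called. The fit of all 39 libraries called none of the 3 (adjusted p = 0.0501, 0.157 and 0.190). Of 24 genes of monocyte-derived and interstitial macrophages, 3 were called higher and 7 lower, against 5.00% and 3.58% of all genes. Mertk, a receptor for dying cells, and the tetraspanin Cd81 were among the 3 that rose, by 0.43 and 0.71 (adjusted p = 0.00947 and 0.0101). Both lost their calls over all 39 libraries (adjusted p = 0.284 and 0.111).

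Many genes of mature, resident-type alveolar macrophages were higher. Of 28 tested, 14 were called higher and 2 lower, against 5.00% and 3.58% of all genes, with a median log2 difference of 0.40 (0.19 in old saline). As this list too was chosen with earlier results known, these values only describe it. For 25 of 28 members (89.3%) the estimate was further from young saline in old ISRIB than in old saline macrophages. Among all genes tested this share was 62.7%. Siglecf, the lectin by whose low level these cells were sorted (chr7:43351341-43359531), was 49.4, 49.6, 50.8, 57.7 and 45.4 CPM in young saline, 55.4, 83, 117, 54.1 and 103 CPM in old saline and 99.5, 113, 151, 124 and 139.5 CPM in old ISRIB libraries. Old saline libraries fell into a low pair near the young range and 3 higher ones, while all old ISRIB libraries were above all young ones. The difference was 1.31 ± 0.17 (SE), adjusted p = 4.01e-05, with 0.71 from age and 0.60 from the ISRIB step. Because the gate used the Siglec F protein, this measures RNA within a sorted range.

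Marco, a scavenger receptor for particles and bacteria, was 14.2, 6.41, 8.23, 35.5 and 11.3 CPM in young saline and 47.9, 116, 127, 55.5 and 87.2 CPM in old ISRIB libraries. Young saline replicate 4 was the highest of its group but stayed below every old ISRIB library. The difference was 2.54 ± 0.44 (SE), adjusted p = 6.30e-04. Krt79, a keratin found in alveolar macrophages, measured 6.88, 5.51, 5.53, 2.71 and 8.95 CPM in young saline, 8.74, 9.79, 99.3, 14 and 59.7 CPM in old saline and 42, 92.1, 135, 72.3 and 104 CPM in old ISRIB libraries. Again 2 old saline libraries, replicates 3 and 5, were as high as old ISRIB and the other 3 were near the young level. Its difference was 3.86 ± 0.55 (SE), adjusted p = 1.08e-04. The ribonuclease gene Ear1, the fatty acid binding protein gene Fabp1 and the lipid droplet gene Cidec rose by 1.93, 3.11 and 2.62 (adjusted p = 2.75e-04, 7.62e-04 and 0.00214; Cidec was chosen after its values were seen). Pparg, the transcription factor that alveolar macrophages require, rose by 0.51 (adjusted p = 0.0031, and 0.323 over all 39 libraries). Members that went the other way were F7, coagulation factor VII (-0.72), and Tmem119 (-1.71; adjusted p = 0.00141 and 0.0121). F7 lost its call over all 39 libraries (adjusted p = 0.111).

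**Figure D3:**
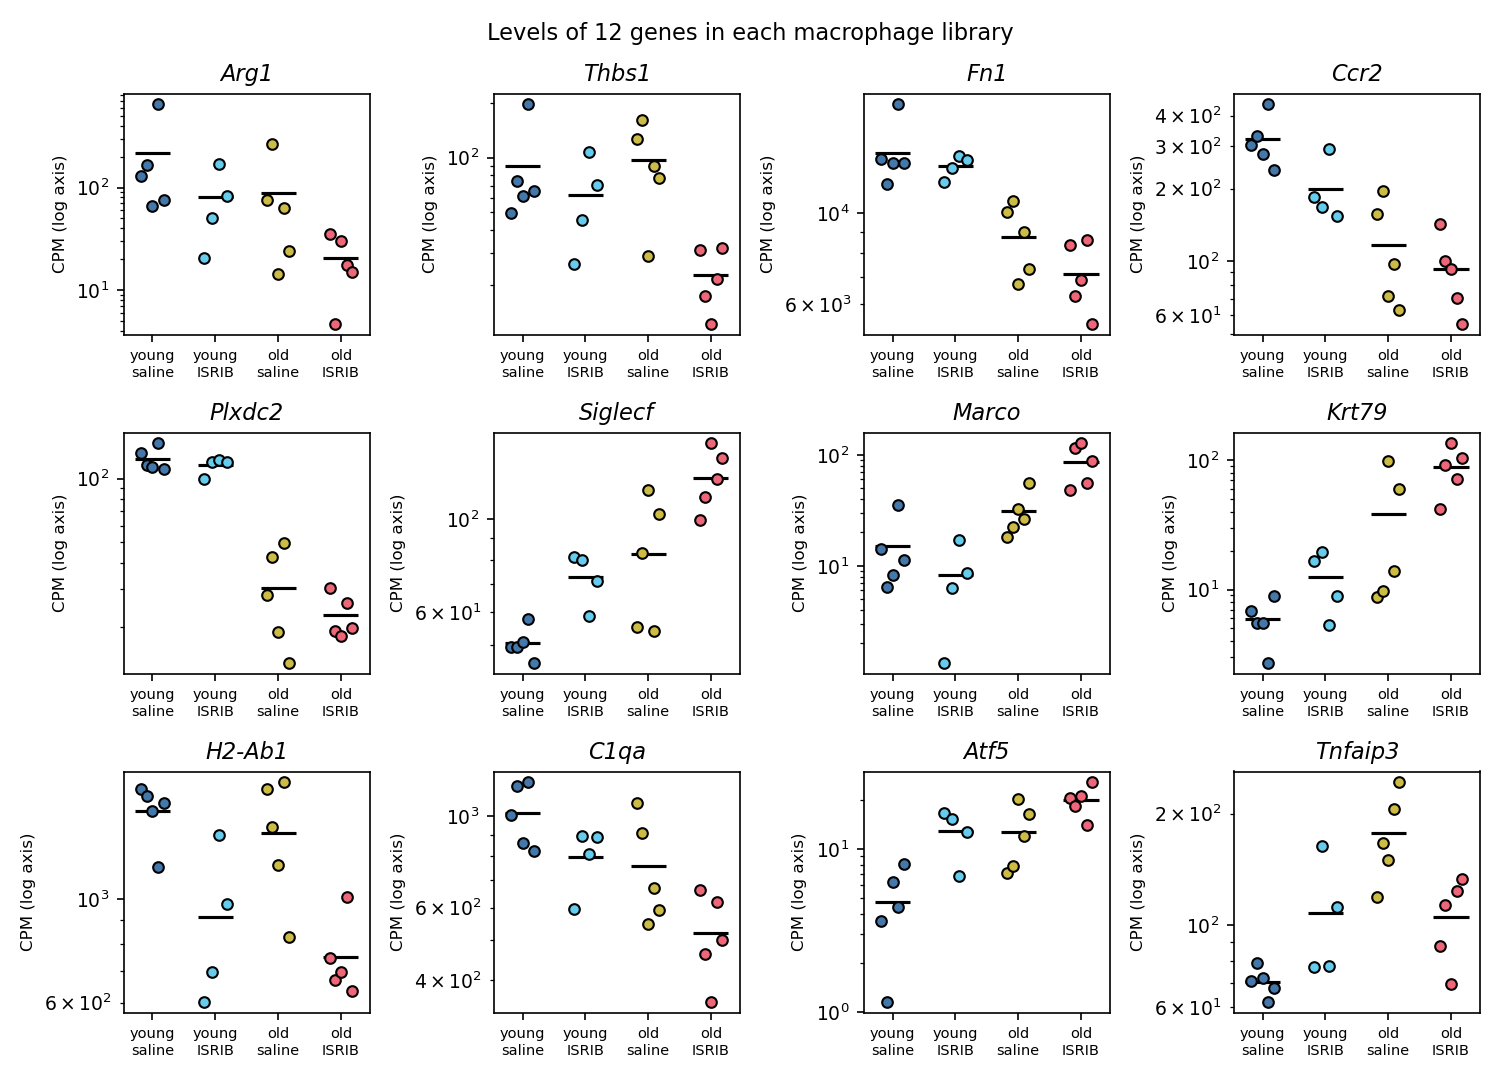
CPM (vertical log axes) of 12 genes in the 19 macrophage libraries; points are libraries and lines group means. Arg1, Thbs1, Fn1, Ccr2, Plxdc2, H2-Ab1 and C1qa are lower in all 5 old ISRIB than in all 5 young saline libraries, Siglecf, Marco, Krt79 and Atf5 are higher in all 5, and Tnfaip3 overlaps.

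Lipid-handling genes of Trem2-type macrophages also rose, with 9 of 23 called higher and none lower by edgeR (2 were called in old saline). Among all genes the shares called in old ISRIB were 5.00% higher and 3.58% lower. Gpnmb, a lysosomal membrane glycoprotein, was 872, 988, 817, 748 and 950.0 CPM in young saline and 2239, 1603, 1563, 2165 and 2675 CPM in old ISRIB libraries, and 1789 ± 440.1 CPM (SD, n = 5) in old saline. Old ISRIB libraries lay above all young ones, and the rise of 1.23 (adjusted p = 3.05e-04) was mainly reached with age (1.03). For the fatty acid scavenger Cd36 the order differed: 192, 203, 175, 227 and 194 CPM in young saline, 328, 206, 250.04, 202 and 392 CPM in old saline and 546, 449, 429, 567 and 683 CPM in old ISRIB libraries. All old ISRIB libraries exceeded all libraries of both saline groups. Its difference was 1.43 ± 0.21 (SE), adjusted p = 1.07e-04, with an age step of 0.48 (adjusted p = 0.306) and an ISRIB step of 0.96 (adjusted p = 0.144). Plin2, which coats lipid droplets, and the sterol exporter Abcg1 rose by 0.52 and 0.64 (adjusted p = 0.0038 and 0.00668). Trem2 itself was 353 ± 39.8 CPM and 439.6 ± 79.4 CPM (SD, n = 5) and was not called (0.32 ± 0.13 (SE), adjusted p = 0.122); it passed in 3 alternatives (adjusted p = 0.0320 without a filter on low counts, 0.0486 with the replicate number as a block and 0.0417 with that block and GC and length offsets) and without old ISRIB replicate 3. Of 29 genes of sterol and fatty acid synthesis edgeR called none higher and 5 lower, to be read beside the same shares of all genes.

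Most genes of presentation on MHC class II were lower in old ISRIB macrophages. Class II molecules show peptides to CD4 T cells, and their genes share a promoter module bound by the RFX and NF-Y factors and depend on the co-activator CIITA. Of 13 genes tested, 1 was called higher and 8 lower, against 5.00% and 3.58% of all genes. The list median was -0.62 in old ISRIB and -0.13 in old saline macrophages. H2-Ab1, the beta chain of I-A, was 1716, 1659.9, 1544, 1172 and 1607 CPM in young saline, 1724, 1425, 1183, 1776 and 828 CPM in old saline and 746, 669, 697, 1009.9 and 635 CPM in old ISRIB libraries. Each old ISRIB library was below each young saline one, whereas 4 of the 5 old saline libraries lay within or above the young range. The difference was -1.04 ± 0.19 (SE), adjusted p = 0.00136 in old ISRIB and -0.15 ± 0.19 (SE), adjusted p = 0.833 in old saline macrophages.

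The same held for H2-Eb1 (-1.02 and -0.11), H2-Aa (-0.90 and -0.11) and the invariant chain Cd74 (-0.90 and -0.15), with adjusted p = 8.42e-04, 0.0031 and 0.00135 in old ISRIB. Ciita, the co-activator, was 81.2, 62.3, 92.7, 61 and 77.7 CPM in young saline and 28.6, 43.3, 39.1, 38.8 and 23.5 CPM in old ISRIB libraries, and fell without overlap by 1.11 (adjusted p = 0.00146; -0.25 in old saline). H2-DMa and H2-DMb1, the pair that loads peptide, fell by 0.62 and 0.54 (adjusted p = 7.14e-04 and 0.00458). For the ISRIB step itself the adjusted p was 0.144 for H2-Ab1 and 0.158 for Ciita, so neither passed. Young ISRIB macrophages, compared with the same young saline libraries, had a list median of -0.59 and H2-Ab1 at 602, 699, 1374 and 977 CPM (log2 difference -0.75, adjusted p = 0.143), so 3 of its 4 libraries were below the young saline range. Over all 39 libraries H2-Eb1, Cd74 and H2-Aa missed the threshold (adjusted p = 0.0652, 0.0651 and 0.107), while H2-Ab1 and Ciita kept it. One member rose: H2-Ob, a chain of the B cell peptide editor H2-O, from 0.655, 3.2, 1.65, 1.43 and 2 CPM to 4.58, 7.77, 7.5, 4.7 and 9.77 CPM (1.91 ± 0.48 (SE), adjusted p = 0.0129). B cell markers rose beside it, and their part was not tested. H2-Aa and H2-DMb1 were chosen after their values were seen.

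The promoters of 3 members that fell and of H2-Ob, which rose, are shown because they share letters while their levels moved in opposite directions. They come from RefSeq (build GRCm38.p6), 5′ to 3′, from base 130 to base 11 before the start of the gene. Capitals mark matches on either strand to the core of the X box bound by RFX or to ATTGG (the inverted CCAAT bound by NF-Y).
H2-Aa, chr17:34287834-34287953, reverse strand: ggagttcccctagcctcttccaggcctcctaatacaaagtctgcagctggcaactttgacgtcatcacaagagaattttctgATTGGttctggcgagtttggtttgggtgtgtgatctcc
H2-Eb1, chr17:34305737-34305856, forward strand: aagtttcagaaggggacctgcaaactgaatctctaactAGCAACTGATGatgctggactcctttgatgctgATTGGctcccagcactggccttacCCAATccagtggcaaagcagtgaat
H2-DMb1, chr17:34153061-34153180, forward strand: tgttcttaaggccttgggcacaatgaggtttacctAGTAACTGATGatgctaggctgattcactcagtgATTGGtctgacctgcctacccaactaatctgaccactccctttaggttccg
H2-Ob, chr17:34238775-34238894, forward strand: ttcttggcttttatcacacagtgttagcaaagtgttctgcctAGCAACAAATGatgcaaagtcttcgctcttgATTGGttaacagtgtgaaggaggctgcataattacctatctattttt
Of the 9 called members, 5 had a promoter in the table, 5 of these held ATTGG and 3 the X box core. Matches were counted from base 250 before to base 50 after the start, and among all 32851 promoters of that length the shares were 37.4% and 0.895%. H2-Ob holds both motifs, as do H2-Eb1 and H2-DMb1. The choice of these motifs was made after the values were seen.

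Several targets of the integrated stress response were higher in old ISRIB macrophages. Of 32 genes that ATF4 and CHOP are known to induce, 7 were called higher and 1 lower, against 5.00% and 3.58% of all genes. Their median was 0.19 (0.14 in old saline). For 23 of 32 members (71.9%) the estimate lay further from young saline in old ISRIB than in old saline macrophages. This share is near the 62.7% of all genes tested. Atf5, a stress-induced transcription factor, was 3.6, 1.15, 6.23, 4.42 and 8.04 CPM in young saline, 7.12, 7.86, 20.2, 12.1 and 16.5 CPM in old saline and 20.5, 18.4, 21, 14 and 25.6 CPM in old ISRIB libraries. All old ISRIB libraries were above all young ones. The difference was 2.03 ± 0.35 (SE), adjusted p = 6.04e-04, beside 1.40 ± 0.35 (SE), adjusted p = 0.044 in old saline. Atf4 itself went from 99 ± 12 CPM to 136 ± 11.7 CPM (SD, n = 5), a rise of 0.45 (adjusted p = 0.0126, and 0.120 over all 39 libraries). ISRIB acts on the making of ATF4 protein, which these data do not measure.

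Phgdh, the first enzyme of serine synthesis, was 19, 22.7, 20.3, 11.5 and 18.7 CPM in young saline and 32.3, 51.9, 52.6, 29.5 and 37.5 CPM in old ISRIB libraries. They did not overlap, and the difference was 1.14 ± 0.22 (SE), adjusted p = 0.00178 (0.0881 over all 39 libraries). Gdf15, a secreted stress hormone, rose by 1.48 and Herpud1, a protein of endoplasmic reticulum (ER) degradation, by 0.86 (adjusted p = 0.0115 and 0.00147). Ppp1r15a encodes GADD34, the phosphatase subunit that ends the response by dephosphorylating eIF2. Its level was 14.9, 17.4, 10.7, 12.4 and 16.2 CPM in young saline, 33.8, 27.9, 42.8, 29.3 and 36.3 CPM in old saline and 28.9, 31, 30.7, 36.4 and 30.6 CPM in old ISRIB libraries. Both old groups were above every young saline library and overlapped with each other. Its differences were 1.13 ± 0.19 (SE), adjusted p = 4.19e-04 and 1.25 ± 0.19 (SE), adjusted p = 9.79e-04. Ppp1r15a was the 1 gene called higher in the list of 14 genes of eIF2 kinases, eIF2 and eIF2B, which thus also holds a phosphatase subunit. The 1 called lower was the kinase Eif2ak2 (-0.48, adjusted p = 0.0431), lost on leaving out any of 7 libraries. Among all genes 5.00% were called higher and 3.58% lower. The called genes of this list were thus no subunits of eIF2 or eIF2B.

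Herpud1, which rose, and Nupr1, a stress-induced chromatin protein that fell (-0.70 ± 0.20 (SE), adjusted p = 0.0249), were the called members whose promoter held TGATGNAA, the core of the element bound by ATF4 with C/EBP partners. Both hold it on the reverse strand, and capitals mark it in the same window of RefSeq promoters.
Herpud1, chr8:94386299-94386418, forward strand: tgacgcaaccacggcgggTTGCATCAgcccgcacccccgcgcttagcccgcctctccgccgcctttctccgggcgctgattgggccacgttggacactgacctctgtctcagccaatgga
Nupr1, chr7:126625481-126625600, reverse strand: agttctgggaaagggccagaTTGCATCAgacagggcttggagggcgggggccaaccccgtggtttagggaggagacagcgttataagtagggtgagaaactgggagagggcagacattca
All 8 called members had a promoter in the table, 2 with a match, against 3.97% of all promoters over that longer window. Nupr1 lost its call without young saline replicate 1 or 2 or old ISRIB replicate 5 (adjusted p up to 0.0945) and over all 39 libraries (0.0678).

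Called ER and cytosolic chaperones were higher, and called genes of the proteasome and the respiratory chain were lower, against 5.00% higher and 3.58% lower among all genes. Of 22 ER chaperone and unfolded protein response genes 2 rose, Dnajb9, a co-chaperone of the ER, by 0.69 (adjusted p = 0.0022) and Sel1l, a subunit of ER degradation, by 0.25. Hspa5, the main ER chaperone BiP, was 889.9 ± 138 CPM and 1132 ± 112 CPM (SD, n = 5) and missed the threshold (0.35 ± 0.12 (SE), adjusted p = 0.0612), but passed with DESeq2 (adjusted p = 0.0310), with only these 2 groups fitted (0.0195) and in 5 further alternatives, 1 of them without young saline replicate 5. The cytosolic chaperone Hspa8 rose by 0.72 (adjusted p = 3.05e-04). Hsp90aa1 was also called higher, but lost its call over all 39 libraries (adjusted p = 0.345) and on some omissions. Of 38 proteasome genes 4 fell, such as Psmb2 by 0.46 and Psmd14 by 0.40 (adjusted p = 0.00662 and 0.00787). Psma2 and Psma4 lost their calls over all 39 libraries (adjusted p = 0.0907 and 0.0588) and on some omissions. The 74 respiratory chain genes had 8 calls, all lower, and a median of -0.24 (-0.14 in old saline), with Atp5j2, an ATP synthase subunit, at -0.51 (adjusted p = 0.00311, and 0.0630 over all 39 libraries). The calls of Atp5g3, Ndufs8 and Ndufs6 were also lost over all 39 libraries (adjusted p = 0.0599, 0.0538 and 0.125) and on some omissions. Cytosolic ribosomal proteins had 1 call among 77 and a median of -0.05. Sel1l and the ribosomal call, Rps26, each lost it on leaving out any of 8 libraries.

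Inflammatory genes were among the groups in which old ISRIB macrophages were estimated nearer to young ones than old saline macrophages were. Among 23 NF-kB cytokine and feedback genes the median was 0.26 in old ISRIB and 0.50 in old saline macrophages, and for 7 of 23 was old ISRIB further away, compared with 62.7% of all genes. Immediate early genes had medians of 0.30 and 0.54, with 10 of 26 further away. Calls in old ISRIB were 3 higher and 0 lower in the NF-kB list, and 4 higher and 1 lower among immediate early genes. In old saline these lists had 5 and 2 calls. Shares of all genes were 5.00% higher and 3.58% lower in old ISRIB, and 1.16% called in old saline. Tnfaip3 encodes A20, which shuts off NF-kB signalling. It was 70.9, 79.1, 72.2, 62.2 and 67.5 CPM in young saline, 119, 167, 150.1, 206 and 242 CPM in old saline and 88.1, 113, 69.4, 124 and 133 CPM in old ISRIB libraries. All old saline libraries exceeded the young ones, whereas 1 old ISRIB library, replicate 3, lay within the young range. The difference was 1.33 ± 0.20 (SE), adjusted p = 9.79e-04 in old saline and 0.58 ± 0.20 (SE), adjusted p = 0.0644 in old ISRIB, not called; leaving out old ISRIB replicate 3 made it a call, as did 4 other alternatives.

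Nfkbia and Nfkbiz, inhibitors of NF-kB, and the neutrophil chemoattractant Cxcl2 had the same order, 0.73, 1.15 and 1.62 in old saline against 0.39, 0.64 and 0.79 in old ISRIB macrophages. The first 3 values were called (adjusted p = 0.016, 0.0332 and 0.0195) and the last 3 were not (0.115, 0.157 and 0.168). Alternatives did call them in old ISRIB: Nfkbia with the replicate number as a block (0.0102), with that block and GC and length offsets (0.00624), with genes of low counts kept (0.0185) and without old ISRIB replicate 1 (0.0491), and Nfkbiz and Cxcl2 with genes of low counts kept (0.00640 and 3.94e-04) or these 2 groups fitted alone (0.00528 and 0.0274). A call in one comparison and none in the other is no difference between them: the ISRIB step was not called for any of these genes (Tnfaip3 adjusted p = 0.216, Cxcl2 0.484). Tnfaip3, Nfkbia, Nfkbiz and Cxcl2 were chosen after their values were seen. Il1a, the alarm cytokine interleukin 1 alpha, stayed high in both, at 42.1, 51.6, 74.5, 63.1 and 72.5 CPM in old ISRIB against 34.7, 29.1, 23, 33.9 and 29.1 CPM in young saline (1.02 ± 0.21 (SE), adjusted p = 0.00347, and 0.159 over all 39 libraries; 1.20 in old saline). So did the chemokine Ccl3, at 1.18 and 1.27 (adjusted p = 0.00657 and 0.0172). Ccl6, an abundant macrophage chemokine, rose in old ISRIB by 1.08 and in old saline by 0.64, and Cxcl14 fell in old ISRIB by 1.51 (adjusted p = 3.16e-05, 0.0144 and 9.27e-04). Socs3, a feedback inhibitor of cytokine receptors, fell by 0.61 (adjusted p = 0.00583, and 0.101 over all 39 libraries) with an estimate of 0.03 in old saline.

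Interferon-stimulated genes and genes of the cell cycle had lower median levels in old ISRIB than in either saline group. The 30 interferon genes had a median of -0.53 in old ISRIB and 0.09 in old saline macrophages. Their summed level was 779.7 to 858 (median 807) CPM in young saline, 461 to 1076 (median 959) CPM in old saline and 462 to 799 (median 618) CPM in old ISRIB libraries. These ranges overlap. Of the 30 members edgeR called 2 lower (Ifi204 and Oas2), against 3.58% of all genes. Both calls were lost on leaving out any of 7 libraries. Oas2, an antiviral synthetase, was 15.6, 10.6, 25.8, 18.2 and 21.3 CPM in young saline and 6.62, 11.8, 6.89, 11.4 and 5.08 CPM in old ISRIB libraries, with 2 old ISRIB libraries above the lowest young one.

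The 31 genes of DNA replication and mitosis had medians of -0.69 and -0.19. All 31 were further from young saline in old ISRIB than in old saline, against 62.7% of all genes. Their summed level was 1005 to 1189.6 (median 1095) CPM in young saline, 650.0 to 1493 (median 860.5) CPM in old saline and 576 to 779 (median 664) CPM in old ISRIB libraries, so that no old ISRIB library reached the young range. In young ISRIB libraries it was 474 to 1309.9 (median 596) CPM. Top2a, the topoisomerase of dividing cells, was 105, 88.7, 90.3, 80.4 and 72.7 CPM in young saline and 51.4, 30.3, 54.6, 40.3 and 40.7 CPM in old ISRIB libraries (-1.002 ± 0.28 (SE), adjusted p = 0.0238). Its call was lost without young saline replicate 1, old ISRIB replicate 2 or 5 (adjusted p up to 0.0664) and over all 39 libraries (0.123). Mki67, the proliferation marker, also did not overlap, at 125 to 141 and 52.3 to 98.6 CPM, but missed the threshold (-0.86 ± 0.29 (SE), adjusted p = 0.0623; chosen after its values were seen) and passed only when these 2 groups were fitted alone or genes with low counts were kept (adjusted p = 4.25e-05 and 3.15e-06). Called members were 4 of 31, all lower, against 3.58% of all genes, each lost on leaving out 1 of at least 3 libraries. In the opposite direction, 6 of 22 senescence and p53 genes rose and none fell by edgeR, against 5.00% and 3.58% of all genes. Among the 6 was the cell cycle inhibitor Cdkn1a. It measured 126, 120.5, 110.3, 110.3 and 115 CPM in young saline and 193, 208, 192, 159 and 229.9 CPM in old ISRIB libraries. Its difference was 0.75 ± 0.17 (SE), adjusted p = 0.0067 (0.0753 over all 39 libraries), beside 0.63 in old saline.

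**Figure D4:**
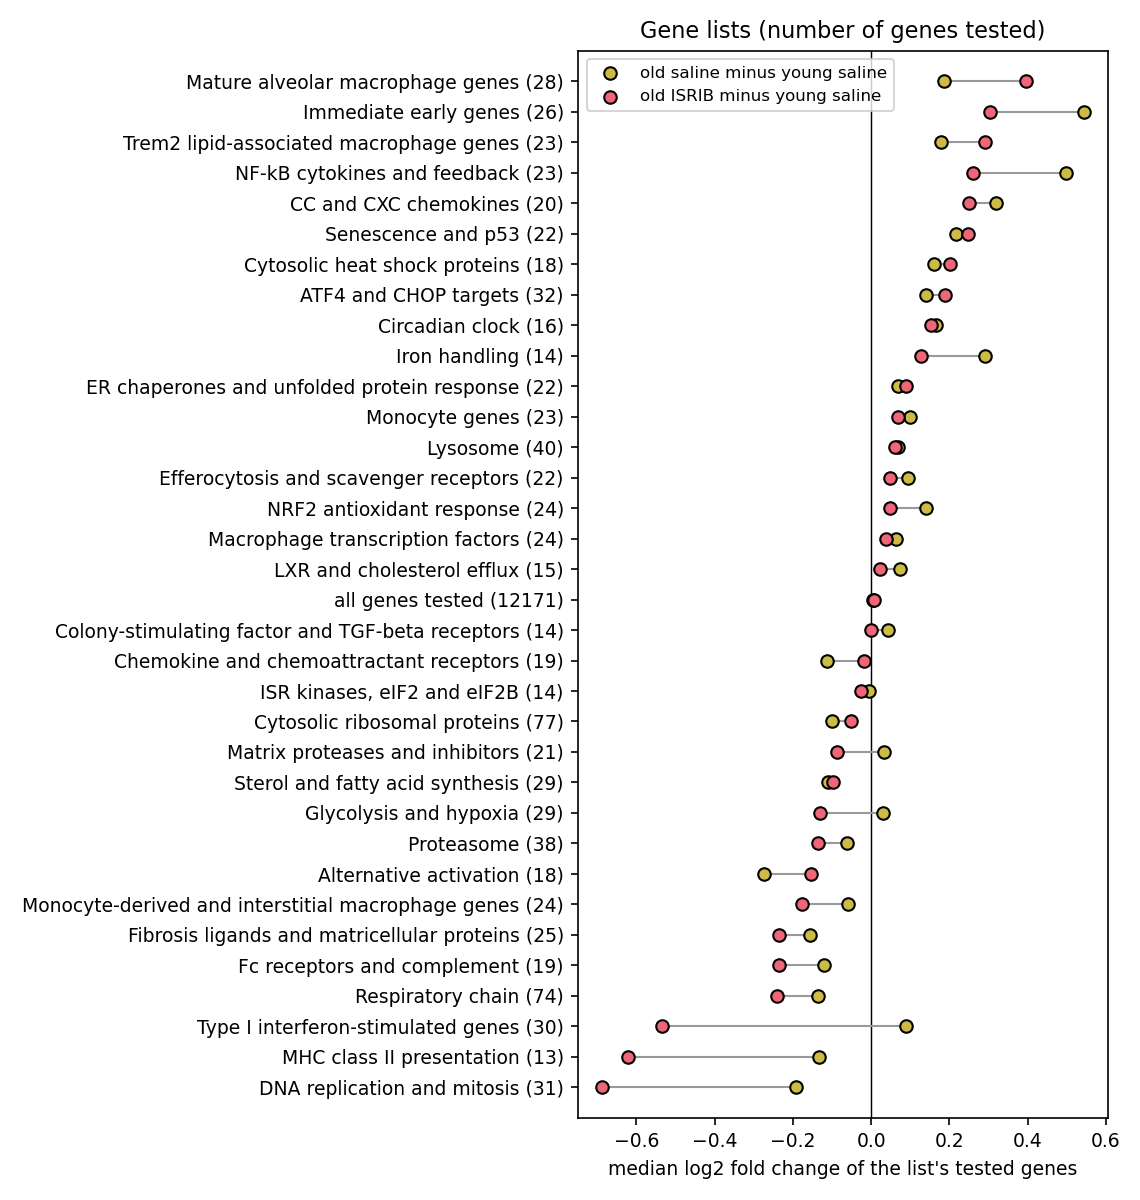
Median log2 fold change (horizontal axis) of the tested members of each gene list and of all genes, for old ISRIB (red) and old saline (yellow), both minus young saline. DNA replication, MHC class II and interferon-stimulated genes lie lower in old ISRIB, at -0.69, -0.62 and -0.53, while immediate early and NF-kB genes lie nearer 0 than in old saline.

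Several other lists had calls in both directions, to be read beside the 5.00% higher and 3.58% lower among all genes. Of 22 efferocytosis and scavenger receptors, 6 were called higher and 3 lower, such as Cd300a, an inhibitory receptor for lipids of dying cells (0.68), and Itgav, the alpha V integrin that activates TGF-beta (-0.59; adjusted p = 0.00141 and 5.93e-04). Among 19 Fc receptor and complement genes, 3 were called higher and 6 lower; the inhibitory Fc receptor Fcgr2b fell by 0.82 (adjusted p = 5.37e-04). In the lysosome list of 40, 5 were called higher and 4 lower, with cathepsin C (Ctsc) at -0.52 (adjusted p = 0.0011, and 0.0679 over all 39 libraries). Of 29 glycolysis and hypoxia genes 1 rose and 4 fell, with enolase (Eno1) at -0.50 and Pfkp at -0.42 (adjusted p = 0.00679 and 0.00224). Alternative activation genes split evenly, 3 higher and 3 lower of 18: beside the fall of Arg1, Chil3 (Ym1) rose by 0.99 and the mannose receptor Mrc1 by 0.45 (adjusted p = 0.00317 and 0.00998, the latter 0.337 over all 39 libraries).

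Among the largest rises were transcripts of B, plasma and T cells. Immunoglobulin kappa constant (Igkc) was 3.6, 0.897, 1.53, 1.71 and 0.968 CPM in young saline, 22.1, 30.3, 30.8, 5.97 and 102 CPM in old saline and 29.8, 52.4, 138, 39.2 and 88.4 CPM in old ISRIB libraries. Every old library was above every young one, and the differences were 5.44 ± 0.65 (SE), adjusted p = 2.68e-05 and 4.58 ± 0.65 (SE), adjusted p = 9.79e-04. Ighm rose by 4.37 and the joining chain Jchain by 6.76 (adjusted p = 1.20e-04 and 3.30e-04, the latter 0.0756 by limma voom). Without young saline replicate 1 the Ighm value was 5.00, and without replicate 4 that of Jchain was 7.69. The variable segment Igkv3-2 had 0 counts in young saline and 1000 in old ISRIB libraries, a level at least 365-fold higher when the whole young group is set to the floor of 3 counts. For Ighv1-53 the counts were 1 and 294, a ratio of 322 (95% counting interval 57.3 to 12752). Ms4a1, which encodes CD20, was at 0 in 4 young saline libraries and 4.48, 8.63, 10.2, 5.88 and 3.08 CPM in old ISRIB libraries, and Il2rb, a receptor chain of NK and T cells, was 2.44, 6.91, 6.41, 2.74 and 9.5 CPM there. Both had counts in young saline replicate 5 alone, the deepest library, and without it their log2 differences were 8.74 and 8.53, in place of 5.31 and 5.29. The filter on low counts was passed by 12 of 12 listed B cell markers, 7 of 16 plasma cell and 14 of 18 T and NK cell genes. Some passed it through the old libraries in which they were high, such as Jchain, with 5 counts in young saline and 564 in old ISRIB. No count of calls among them is therefore given, and p-values of such genes are no separate support. Of the fibroblast markers, Pdgfra was at most 0.478 CPM in young saline and 0.759 CPM in old ISRIB, while Col1a1 reached 13.1 CPM in 1 young saline library and 0.621 CPM in old ISRIB. The fibroblast list summed to 9.53 to 38 (median 10.9) and 7.08 to 15.4 (median 8.12) CPM, highest in young saline replicate 3. The red blood cell gene Hbb-bs was at most 0.259 and 0.258 CPM.

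**Figure D5:**
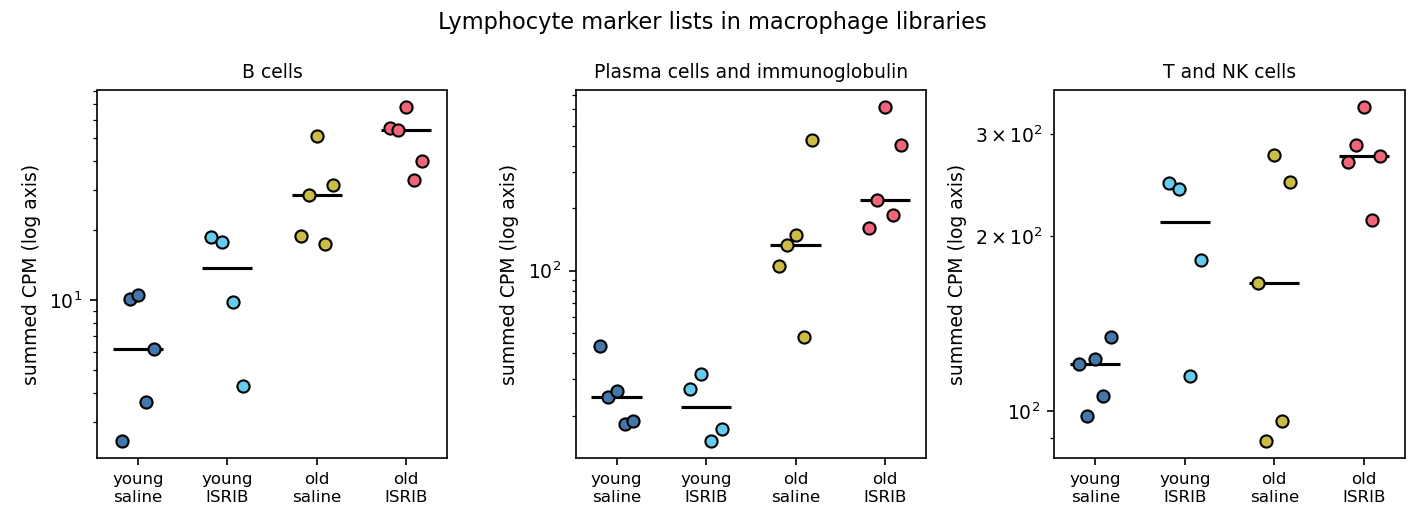
Summed CPM (vertical log axes) of the B cell, plasma cell and T and NK cell marker lists in each macrophage library; points are libraries and lines medians. All 5 old ISRIB libraries lie above all 5 young saline libraries in each list.

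The same comparison in lung monocytes of naive mice, which had no bleomycin and share no library with the macrophages, called 7 of 12170 genes (0.0575%; DESeq2 called 124 and limma voom 5, and the unadjusted p was under 0.05 for 1300). Leaving out 1 library gave 2 to 6. In both cell types 5 genes were called, which is 71.4% of the monocyte calls and 0.478% of the macrophage calls. Bmpr1a, a receptor for bone morphogenetic proteins, rose in both, from 0.491, 0, 1.53, 2.14 and 1.87 CPM in young saline to 12.4, 16.4, 14, 6.92 and 15 CPM in old ISRIB macrophages (3.35 ± 0.43 (SE), adjusted p = 4.01e-05), with 9.39, 8.88, 7.72, 7.22 and 12.7 CPM in old saline. In monocytes its difference was 5.72 ± 0.91 (SE), adjusted p = 0.0118. The chemokine Ccl5 and the clock gene Per2 also rose in both, by 2.47 and 0.85 in macrophages and 3.63 and 2.12 in monocytes (monocyte adjusted p = 0.0118 and 0.0308). In macrophages Ccl5 rose by 3.16 without young saline replicate 2, and Per2 missed the threshold over all 39 libraries (adjusted p = 0.0522). Summed T and NK cell markers were also higher in the old ISRIB macrophage libraries, and their part in the Ccl5 value was not tested. Ccl3 went in opposite directions, 1.18 in macrophages and -1.46 ± 0.22 (SE), adjusted p = 0.00781 in monocytes, as did Mthfd1l, a mitochondrial folate enzyme (-1.16 and 0.92). In macrophages the Mthfd1l call was lost on leaving out any of 5 libraries and by limma voom (adjusted p = 0.0519). Bmpr1a and Mthfd1l were chosen after their values were seen.

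A test of the difference between the cell types, fitted on all 39 libraries, called 194 of 13587 genes (1.43%), 94 higher and 100 lower in macrophages. Of the 1045 genes called in macrophages, 132 (12.6%) differed from monocytes in this test. Ccr2 was one of the genes whose fall differed (-1.77 ± 0.40 (SE), adjusted p = 0.0125 for the macrophage minus the monocyte difference), and in monocytes its estimate was -0.02. For Fn1 the difference between cell types was -0.73 ± 0.27 (SE), adjusted p = 0.176, and for H2-Ab1 -2.14 ± 0.44 (SE), adjusted p = 0.0059. The H2-Ab1 value is larger in size than its fall in macrophages given above, so an opposite estimate in monocytes is part of it. Monocytes came from naive and macrophages from injured lungs, so cell type and injury cannot be told apart.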

How the data were processed

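RNA of sorted cells was sequenced after poly(A) selection from 3 ng of input (NEBNext Ultra, NextSeq 500), per the labels' protocols. The deposited table holds raw read counts per gene and library, which the authors made with bcl2fastq 2.19.1, Trimmomatic 0.36, STAR 2.6.0 and HTSeq 0.11.2 on mm10, per the submitters' processing notes. How strand and reads shared between genes were treated is not given in the sources used here, so immunoglobulin and T cell receptor segments and overlapping genes are uncertain. Symbols were found for 42462 of 43430 gene IDs (97.8%).

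The 19 macrophage libraries of 4 groups were fitted together with edgeR 4.0.16 in R 4.3.3 (TMM scaling, filterByExpr with a minimum count of 10 and a total of 15, quasi-likelihood test, Benjamini-Hochberg adjustment over all genes tested). Genes were called at an adjusted p under 0.05. Standard errors are those of the fitted log2 differences. Monocytes were fitted in the same way, and the difference between cell types on all 39 libraries. Distances used log2 CPM and an exact permutation test over libraries. Scripts were tested on simulated data. Alternatives were DESeq2 1.42.0, limma voom 3.58.1, other scaling, filters, sample sets, GC and length offsets, a replicate block and omission of each library. Counting intervals and floors cover counting error only.

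Named genes were the 10 with the largest change per direction among called genes whose libraries did not overlap and whose higher group averaged at least 5 CPM, a core list, and up to 5 called members per gene list and direction. The members and lists were chosen with earlier results of these data known. Replicate numbers did not pair the samples. Replicates were not copies of one library, since chi-square per degree of freedom was 7.26 to 24.1 over 20 pairs. Results for some genes are not reported here.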

Additional observations from a re-analysis of the deposited data

Results flagged for a closer look

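In 10 of 79 groups of values, 1 library stood far from the others of its group, where chance flags about 1 group in 20. That rate does not hold for genes otherwise at 0, where any count makes a library far. Nor are genes of the same library independent, so no excess is read from the share. Young saline replicate 4 was the far library for 4 genes. It had 645.5 CPM of Arg1 (next 166.6), 195.6 CPM of Thbs1 (next 74.2), 18308 CPM of Fn1 (next 13492) and 35.5 CPM of Marco (next 14.2). For 5 genes that were otherwise at 0 in young saline, 1 library had counts: 0.423 CPM of Rasef, 0.484 CPM of Ms4a1, 0.423 CPM of Il2rb, 0.484 CPM of Dnah11 and 0.128 CPM of Ighv1-53. In old ISRIB, Ppp1r15a reached 36.4 CPM in replicate 4 (next 30.96).

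The difference between old ISRIB and young saline was itself tested between macrophages and monocytes on all 39 libraries. Given here are the 3 called genes per direction that differed most, provided that 1 group averaged 5 CPM or more. The fitted macrophage minus monocyte difference was 6.99 for S1pr5, 5.59 for Aplnr and 5.56 for Mmp9, and -5.73 for Lmo1, -5.05 for Ctla2b and -4.89 for Nr4a3, on the log2 scale. S1pr5 and Aplnr had 0 CPM in young saline macrophages and Lmo1 had 0 CPM in old ISRIB macrophages, so the sizes of these 3 values depend on the prior count of the fit and are no bounds. Mean levels in macrophages were low for Aplnr (0.228 CPM in old ISRIB), S1pr5 (1.73 CPM in old ISRIB) and Lmo1 (0.924 CPM in young saline).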

How the results depend on the processing

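The count of 1045 genes for old ISRIB against young saline macrophages lay between 726 and 972 on leaving out 1 library and was 591 in the fit of all 39 libraries, 966 with limma voom, 1368 with DESeq2, 1387 without a filter on low counts, 1526 with only the 2 groups fitted, 1104 with the replicate number as a block and 1178 with that block and GC and length offsets. The numbers do not pair the samples: same-numbered libraries had correlations of -0.048 to 0.00677, and 0 of 5 correlated best with their own number. For old saline against young saline (141), DESeq2 gave 294, no filter on low counts 468, all 39 libraries 60 and omissions 47 to 287. Higher calls were 80.9% of these, 66.02% by limma voom. For old ISRIB against old saline (0), the values were 43, 220, 1 and 0 to 30. In monocytes (7) they were 124, 65, 102 and 2 to 6, with 3 under the replicate block. For the difference between cell types (194), DESeq2 gave 408, limma voom 116 and omissions 125 to 245.

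The difference in distance to young saline, 0.0719, was 0.0517 (exact p = 0.0794) with genes of at least 10 CPM and 0.00548 (p = 0.0635) as 1 minus Spearman's correlation, and 0.0552 to 0.0873 on omissions. Squared distances from young saline to old ISRIB were 2.70 over the 500 most variable genes, 0.134 without a filter, 0.0950 with genes of at least 10 CPM and 0.157 with a prior count of 5. From young saline to old saline they were 1.10 over the 500 most variable genes and 0.0340 with genes of at least 10 CPM, and from old saline to old ISRIB 0.397 over the 500 most variable genes. The distance without lymphocyte and immunoglobulin genes was added after seeing the data.

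Of 170 named genes called, 123 kept their call on leaving out each library, 69 lost it over all 39 libraries, 18 under limma voom and 8 under the replicate block. The cause was not tested. None of the 3430 named-gene values under these alternatives reversed. Genes with under 10 counts in young saline have folds that depth limits.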
